A study of Mus musculus with 44 samples.

Results

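The genes Zfp930 to Zfp995 are mouse zinc finger genes, grouped here by their names. Members were chosen as the rows of the gene table whose name is Zfp followed by 3 digits of which the first is 9, without pseudogene names, which gave 65 of 35269 rows, beside 334 other rows named Zfp and a number. Transcripts were measured by RNA-seq in 44 single two-cell embryos of C57Bl/6 mice from 6 litters. The first group held 14 Dppa2/4+/+ embryos (WT) of Dppa2/4+/+ females and Dppa2/4+/+ males, 10 from litter 1 and 4 from litter 2. All other embryos came from females whose oocytes lacked both Dppa2 and Dppa4 (cKO), deleted by a Cre recombinase under the Zp3 promoter, which is active in growing oocytes. With Dppa2/4+/+ males these females gave 15 Dppa2/4+/- embryos (HET1), 7 from litter 1 and 8 from litter 2. With Dppa2/4+/- males they gave 5 Dppa2/4+/- embryos (HET2; 4 from litter 1 and 1 from litter 2) and 10 Dppa2/4-/- embryos (HOM; 3 and 7). The HET2 and HOM genotypes had been assigned from the Dppa2 and Dppa4 transcripts of the embryos themselves. Every WT and every HET1 litter belonged to 1 group, so in comparisons with WT a litter effect and a group effect cannot be told apart. Litters are numbered within each cross, and the labels do not say that litters of the same number in different crosses share anything.

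Many genes in this number range encode KRAB zinc finger proteins. Such a protein reads DNA through an array of zinc fingers, and its KRAB domain binds Trim28, which in turn recruits the histone methyltransferase Setdb1 and heterochromatin proteins. The family is best known for silencing retrotransposons and, through a few members, for guarding imprinted genes in the early embryo. Its genes arose by repeated local duplication, lie side by side in clusters and resemble each other, which matters for short reads.

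In the GRCm38 assembly the 65 members lay on 12 chromosomes and all were annotated as protein-coding. Members of one chromosome that started within 2 Mb of the previous one were taken as a cluster. There were 8 clusters of 2 or more members, and 15 members stood alone. The largest cluster, of 16 members, ran from Zfp990 to Zfp933 on chromosome 4 (145510759 to 147848366). A cluster of 10 members ran from Zfp968 to Zfp931 on chromosome 2 (175372436 to 178078476), and another of 10 from Zfp948 to Zfp945 on chromosome 17 (21567008 to 22867134). Chromosome 7 held 4 members, Zfp977, Zfp976, Zfp975 and Zfp936, between 42579783 and 43192109.

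Promoters of some neighbouring members shared stretches of sequence. RefSeq (GRCm38.p6) gave a window of 300 bases, from 250 before to 50 after a transcription start, for 55 of the 65 members. Of these, 27 shared an unbroken run of 30 or more bases with another member, in 58 pairs. Each of the 58 pairs lay within 1 cluster, out of 137 pairs within clusters. The letters CCAAT (the CCAAT box), searched on both strands, were found in 42 of the 55 windows (76.4%), against 37.4% of the 32851 windows of all genes. The letters CCGGAAG, the core bound by ETS factors, were found in 14 (25.5%, against 8.86%). The GC box GGGCGG was found in 20 (36.4%, against 35.7%), and GCCATNTTG, letters bound by YY1, only in Zfp977 and Zfp936 (3.64%, against 2.51%). Some windows are near copies of others in their cluster, so these shares do not count independent promoters, and a match is not evidence of binding.

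2 sets are shown because their members had the highest levels or differed between litters or groups. In capitals are matches to these 4 motifs on either strand, and sequences run 5′ to 3′. In the letters ATTGGGCGG, a reversed CCAAT overlaps GGGCGG. The first set holds Zfp977 (chr7:42592496-42592795, reverse strand) and Zfp936 (chr7:43177340-43177639, forward strand) of 1 cluster, and Zfp958 (chr8:4612920-4613219, forward strand).
Zfp977: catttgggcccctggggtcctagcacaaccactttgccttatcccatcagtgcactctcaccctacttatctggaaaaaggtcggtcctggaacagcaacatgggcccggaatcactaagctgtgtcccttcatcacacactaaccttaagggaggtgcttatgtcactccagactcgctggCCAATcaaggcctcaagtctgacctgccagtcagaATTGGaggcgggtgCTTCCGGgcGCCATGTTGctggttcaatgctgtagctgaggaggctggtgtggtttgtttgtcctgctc
Zfp936: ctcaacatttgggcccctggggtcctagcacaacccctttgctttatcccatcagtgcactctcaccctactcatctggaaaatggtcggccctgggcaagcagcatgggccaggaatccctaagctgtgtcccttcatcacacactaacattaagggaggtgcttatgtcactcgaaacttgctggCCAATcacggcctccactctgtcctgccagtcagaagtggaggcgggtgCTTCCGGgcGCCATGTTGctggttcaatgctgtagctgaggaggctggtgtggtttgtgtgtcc
Zfp958: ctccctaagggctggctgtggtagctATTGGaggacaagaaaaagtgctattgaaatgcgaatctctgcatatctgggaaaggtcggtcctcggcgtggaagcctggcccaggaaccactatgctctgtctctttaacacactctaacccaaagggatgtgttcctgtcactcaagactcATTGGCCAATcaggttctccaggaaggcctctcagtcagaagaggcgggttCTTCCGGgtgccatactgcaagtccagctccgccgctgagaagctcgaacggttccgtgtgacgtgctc

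The windows of Zfp977 and Zfp936 were identical at 274 of 295 aligned bases (92.9%), with a shared run of 70 bases. That of Zfp958, on another chromosome, was identical to Zfp977 at 202 of 280 (72.1%). The window of Zfp936 lies at an annotated start 63361 bases from the start given in the gene table, within the gene.

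The second set holds 4 members of the chromosome 4 cluster, namely Zfp979 (chr4:147642459-147642758, reverse strand), Zfp982 (chr4:147492167-147492466, forward strand), Zfp988 (chr4:147305354-147305653, forward strand) and Zfp981 (chr4:146514670-146514969, forward strand, 12893 bases inside the gene as the table gives it).
Zfp979: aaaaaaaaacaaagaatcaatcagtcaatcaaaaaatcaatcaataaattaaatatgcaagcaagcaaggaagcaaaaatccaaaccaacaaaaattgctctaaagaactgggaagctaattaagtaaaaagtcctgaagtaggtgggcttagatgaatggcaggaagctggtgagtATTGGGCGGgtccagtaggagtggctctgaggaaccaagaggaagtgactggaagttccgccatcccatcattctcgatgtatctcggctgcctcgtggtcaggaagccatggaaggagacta
Zfp982: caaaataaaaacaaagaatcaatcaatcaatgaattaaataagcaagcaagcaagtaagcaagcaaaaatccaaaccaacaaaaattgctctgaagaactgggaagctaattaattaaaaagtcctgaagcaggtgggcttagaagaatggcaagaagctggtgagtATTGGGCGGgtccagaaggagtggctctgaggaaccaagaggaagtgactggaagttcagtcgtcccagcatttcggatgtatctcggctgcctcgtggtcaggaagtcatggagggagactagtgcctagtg
Zfp988: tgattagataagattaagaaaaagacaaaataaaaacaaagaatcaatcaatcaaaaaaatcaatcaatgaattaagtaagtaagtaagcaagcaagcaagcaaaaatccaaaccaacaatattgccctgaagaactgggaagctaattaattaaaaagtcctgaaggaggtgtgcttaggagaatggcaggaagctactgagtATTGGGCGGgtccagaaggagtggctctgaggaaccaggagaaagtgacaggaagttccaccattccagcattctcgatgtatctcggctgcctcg
Zfp981: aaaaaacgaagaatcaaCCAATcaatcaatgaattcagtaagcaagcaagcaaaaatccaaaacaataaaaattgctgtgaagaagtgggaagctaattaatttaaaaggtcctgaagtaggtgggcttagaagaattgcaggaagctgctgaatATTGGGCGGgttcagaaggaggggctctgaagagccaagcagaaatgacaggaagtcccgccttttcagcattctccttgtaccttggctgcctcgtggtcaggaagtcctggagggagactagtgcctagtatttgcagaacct

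Pairs of these 4 windows were identical at 85.7% to 91.7% of aligned bases, and each holds the joined ATTGGGCGG.

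The depth of the embryos ranged from 247667 to 3163026 reads, with a median of 1770009 in WT, 528166 in HET1, 1108889 in HET2 and 803369 in HOM. Levels were compared as log2 RPM, in which reads are scaled to the total reads of the embryo, with every value under 1.86 (3.63 RPM) raised to 1.86, the highest value that stood for no read in any embryo. Summed Dppa2 and Dppa4 transcripts ranged from 314.1 to 835.6 RPM in WT and reached at most 4.15 RPM in HOM. Markers of sperm summed to at most 0.706 RPM in any embryo, those of cumulus and granulosa cells to at most 17.7 RPM, and those of trophectoderm to at most 20.95 RPM, whereas markers of the 2-cell stage summed to 133.2 RPM or more and those of the oocyte to 894.7 RPM or more in every embryo. WT embryo k of litter 2 stood apart, with a mean correlation of 0.618 with the other WT embryos, against 0.756 to 0.827 for the other 13. It had 1065975 reads. Counts of members that it moved by over 1.5 times, and some differences, are given with and without it.

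As levels per length, which allow genes to be compared, 18 members had a mean of at least 10 RPKM (RPM per kb of transcript), 25 had 1 to 10 RPKM and 22 had less than 1 RPKM. Zfp936 was the highest at 239.1 ± 153.7 RPKM (SD, n = 44), which ranked 69 among 34839 genes. Zfp982 followed at 140.6 ± 82.2, Zfp977 at 134.8 ± 135.8, Zfp979 at 105.2 ± 85.9 and Zfp978 at 99.4 ± 62.8 RPKM. Zfp936 lay above Zfp982 in 37 of 44 embryos, whereas Zfp982 lay above Zfp977 in 22, Zfp977 above Zfp979 in 25 and Zfp979 above Zfp978 in 20 of 44. Among these 4, members next to each other in rank thus had no clear order. The next 7 were Zfp981 (52.0 RPKM), Zfp944 (49.7), Zfp958 (49.3), Zfp942 (32.3), Zfp957 (32.1), Zfp935 (28.3) and Zfp961 (27.7). The 5 members with the highest mean RPM, Zfp936, Zfp979, Zfp982, Zfp977 and Zfp942, held a median of 48.9% of the summed RPM of all members in an embryo, and from 26.0% to 63.7%.

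Neighbours differed widely in level. On chromosome 7, Zfp977 and Zfp936 stood above 100 RPKM while Zfp976, between them, had 0.295 RPKM. In the chromosome 4 cluster the median was 2.78 RPKM and the range 0.142 to 140.6. The chromosome 17 cluster of 10 had a median of 7.08 RPKM, from 0.105 to 49.7. The chromosome 2 cluster of 10 was the lowest, with a median of 0.0736 RPKM and a highest member, Zfp931, at 1.40 RPKM.

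Reads from near-identical copies can be lost or split, since reads that map equally well to several places get a low mapping score and the authors kept those with a score of at least 20. As a measure, the 75-base windows of each member's annotated transcripts were compared with the transcripts of all other genes. On chromosome 2 a median of 76.0% of a member's windows also occurred in another gene, on chromosome 4 a median of 47.9%, and on the other chromosomes 3.44%. Low values of chromosome 2 members with large shares are therefore uncertain. Shares there ran from 12.65% in Zfp931 to 100%. The windows of Zfp935 were all shared, 99.2% of them with Gm49359, those of Zfp978 to 66.4%, those of Zfp988 to 56.1%, those of Zfp979 to 23.6% and those of Zfp981 to 23.3%. Zfp977 (0.296% shared), Zfp958 (0%), Zfp957 (0%), Zfp982 (4.93%) and Zfp936 (7.35%) could be told from other genes over nearly their whole length.

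**Figure D1:**
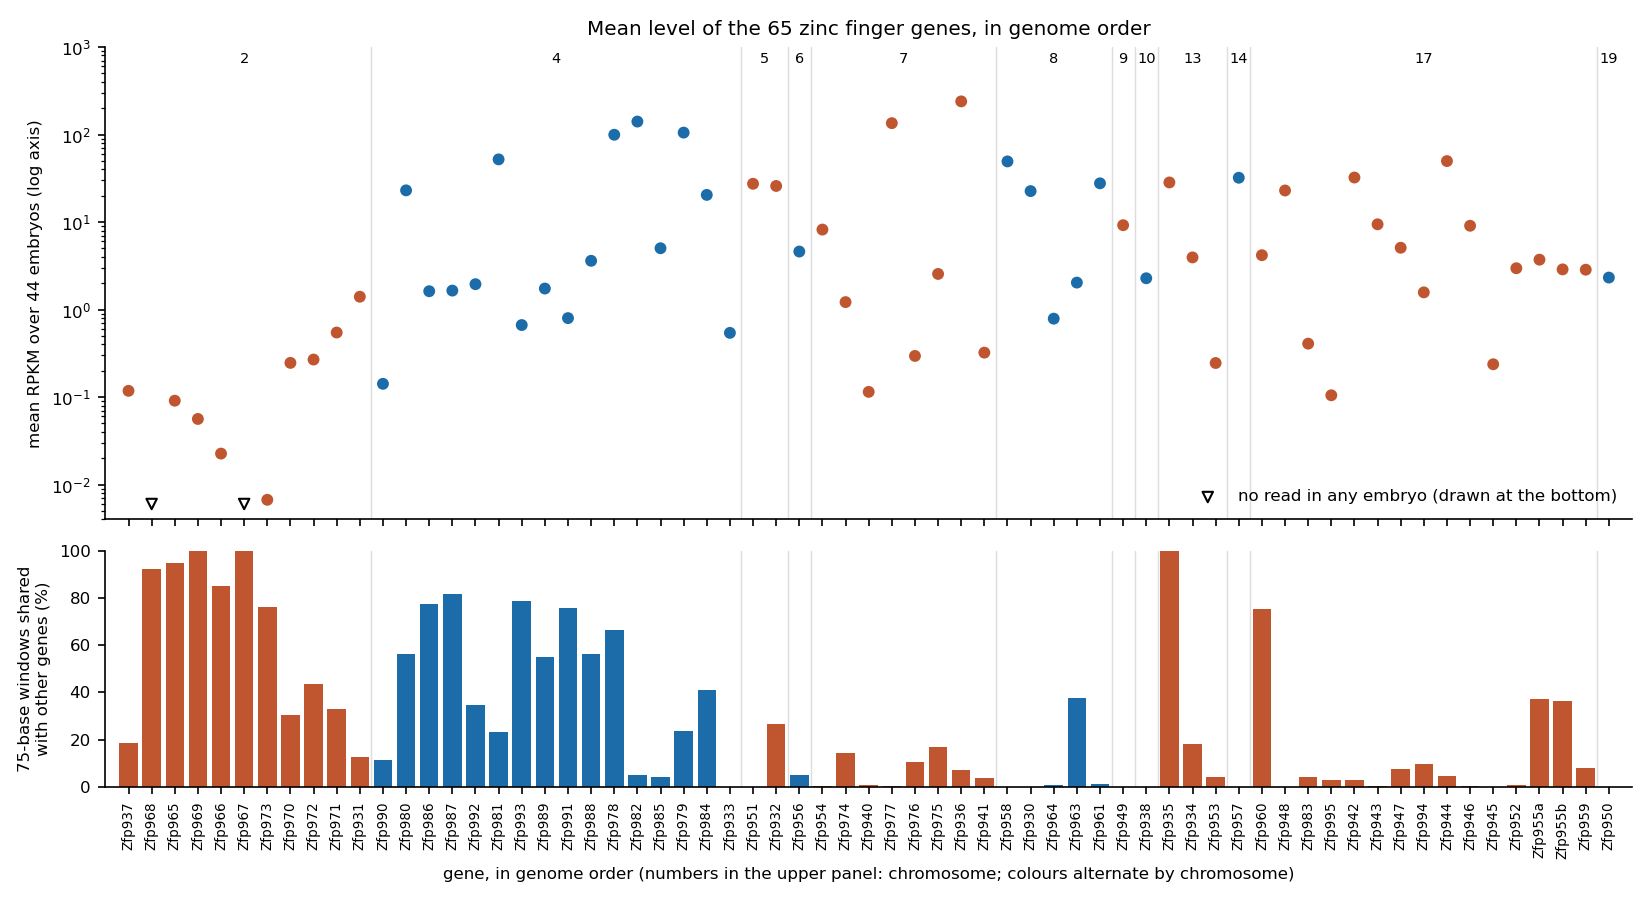
Mean level of each of the 65 genes over 44 embryos (upper panel, RPKM on a log axis) and share of its 75-base transcript windows that also occur in another gene (lower panel, %), in genome order with chromosome numbers at the top. Most chromosome 2 members sit under 1 RPKM, whereas Zfp936, Zfp982 and Zfp977 stand above 100 RPKM with shares under 8%.

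Reads were found in all 44 embryos for 10 members, in 11 to 43 embryos for 40 and in 1 to 10 embryos for 13. Zfp968 and Zfp967, both on chromosome 2, had no read in any embryo, which in the 54739682 reads of all embryos allows up to 0.0548 RPM by counting error alone. Their transcript windows were shared to 92.3% and 100%. An embryo had reads for a median of 42.5 members in WT (25 to 50), 37 in HET1 (31 to 48), 43 in HET2 (39 to 50) and 41 in HOM (36 to 51). At an equal depth of 247667 reads, the expected medians were 38.3, 34.7, 37.3 and 36.1 members, and the lowest embryo was WT k with 20.7. The summed level of all members had a median of 3763 RPM in WT, 2880 in HET1, 5148 in HET2 and 2778 in HOM, with ranges that overlapped between all 4 groups. RPM values are shares of an embryo's reads, so a lower amount of a transcript and a larger amount of other RNA cannot be told apart.

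To test differences between groups, members had to lie above the common floor in at least 5 of the 44 embryos. This held for 49 of the 65 members, among 13338 genes. The 16 members left out, 10 of them on chromosome 2, were too low for a comparison at this depth. Because all 3 group comparisons share the WT embryos, their values stand side by side and were not correlated with each other.

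HET1 embryos had 1 member with more transcript and 4 with less than WT when embryos were taken as independent. With litter as a random effect none of the 5 passed (adjusted p = 0.35 to 0.64, limma). Zfp957, on chromosome 14 (79212355 to 79247369), was higher, and Zfp958 on chromosome 8 (4613167 to 4630231), Zfp981 and Zfp988 of the chromosome 4 cluster and Zfp959 on chromosome 17 (55892093 to 55898928) were lower. These 5 of 49 tested members passed an adjusted p of 0.05, where 6.51% of all tested genes did (3.67% higher, 2.83% lower). At an unadjusted p under 0.05 there were 15 members (30.6%), beside 21.9% of all tested genes. The median difference of the 49 members was -0.33 log2 RPM, beside 0.10 over all tested genes.

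Zfp958 ranged from 6.16 to 8.22 log2 RPM in WT (median 7.24), with reads in all 14 embryos. In HET1 it ranged from 1.86 to 8.60 (median 5.20), in HET2 from 2.84 to 7.98 (median 7.74) and in HOM from 3.74 to 7.15 (median 6.63). WT was thus the tightest group, and the HET1 embryos spread from above the highest WT embryo to the floor. The difference between HET1 and WT was -2.31 ± 0.52 log2 RPM (SE, adjusted p = 0.0045, limma). It lay mostly in litter 2 of HET1, whose mean was 3.79 ± 1.49 (SD, n = 8), whereas litter 1 stood at 6.36 ± 1.73 (n = 7).

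Zfp957 went the other way. It ranged from 3.72 to 6.84 log2 RPM in WT (median 6.02), from 5.11 to 8.06 in HET1 (median 7.18), from 3.30 to 7.56 in HET2 (median 6.34) and from 5.04 to 7.29 in HOM (median 6.63). The groups overlapped. The difference between HET1 and WT was 1.28 ± 0.34 log2 RPM (SE, adjusted p = 0.016, limma). Across the 44 embryos, Zfp957 had negative correlations with Zfp958 (Pearson r = -0.58) and with Zfp978 (r = -0.57), the most negative pairs among all pairs of the 35 members above the floor in at least 22 embryos. Within litters these were -0.41 and -0.52, and the values share libraries and depth.

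Zfp981 ranged from 1.86 to 9.52 log2 RPM in WT (median 7.77), where the value at the floor was WT k, and from 2.01 to 8.13 in HET1 (median 5.95). Its difference was -1.77 ± 0.51 (SE, adjusted p = 0.024, limma), and -2.20 without WT k. Over the alternative fits described below it ran from -2.67 to -0.33, and 11 of 21 lost the call. HET2 had a median of 7.37 and HOM of 6.93, closer to WT than to HET1.

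Zfp988 and Zfp959 were low genes. Zfp988 had a median of 3.82 log2 RPM in WT (1.86 to 5.41), with reads in 14 of 14 embryos, and of 1.86 in HET1 (1.86 to 4.08), with reads in 11 of 15. Its difference was -1.23 ± 0.38 (SE, adjusted p = 0.040, limma). Zfp959 had reads in 12 of 14 WT embryos (median 3.32, 1.86 to 5.63) and in 5 of 15 HET1, 1 of 5 HET2 and 5 of 10 HOM embryos, with medians at the floor in the last 3 groups. Its difference between HET1 and WT was -1.20 ± 0.36 (SE, adjusted p = 0.033, limma). At these levels the differences rest on few reads and on the floor. Over the alternative fits described below they ran from -1.78 to -0.92 for Zfp988 and from -2.15 to -0.78 for Zfp959.

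**Figure D2:**
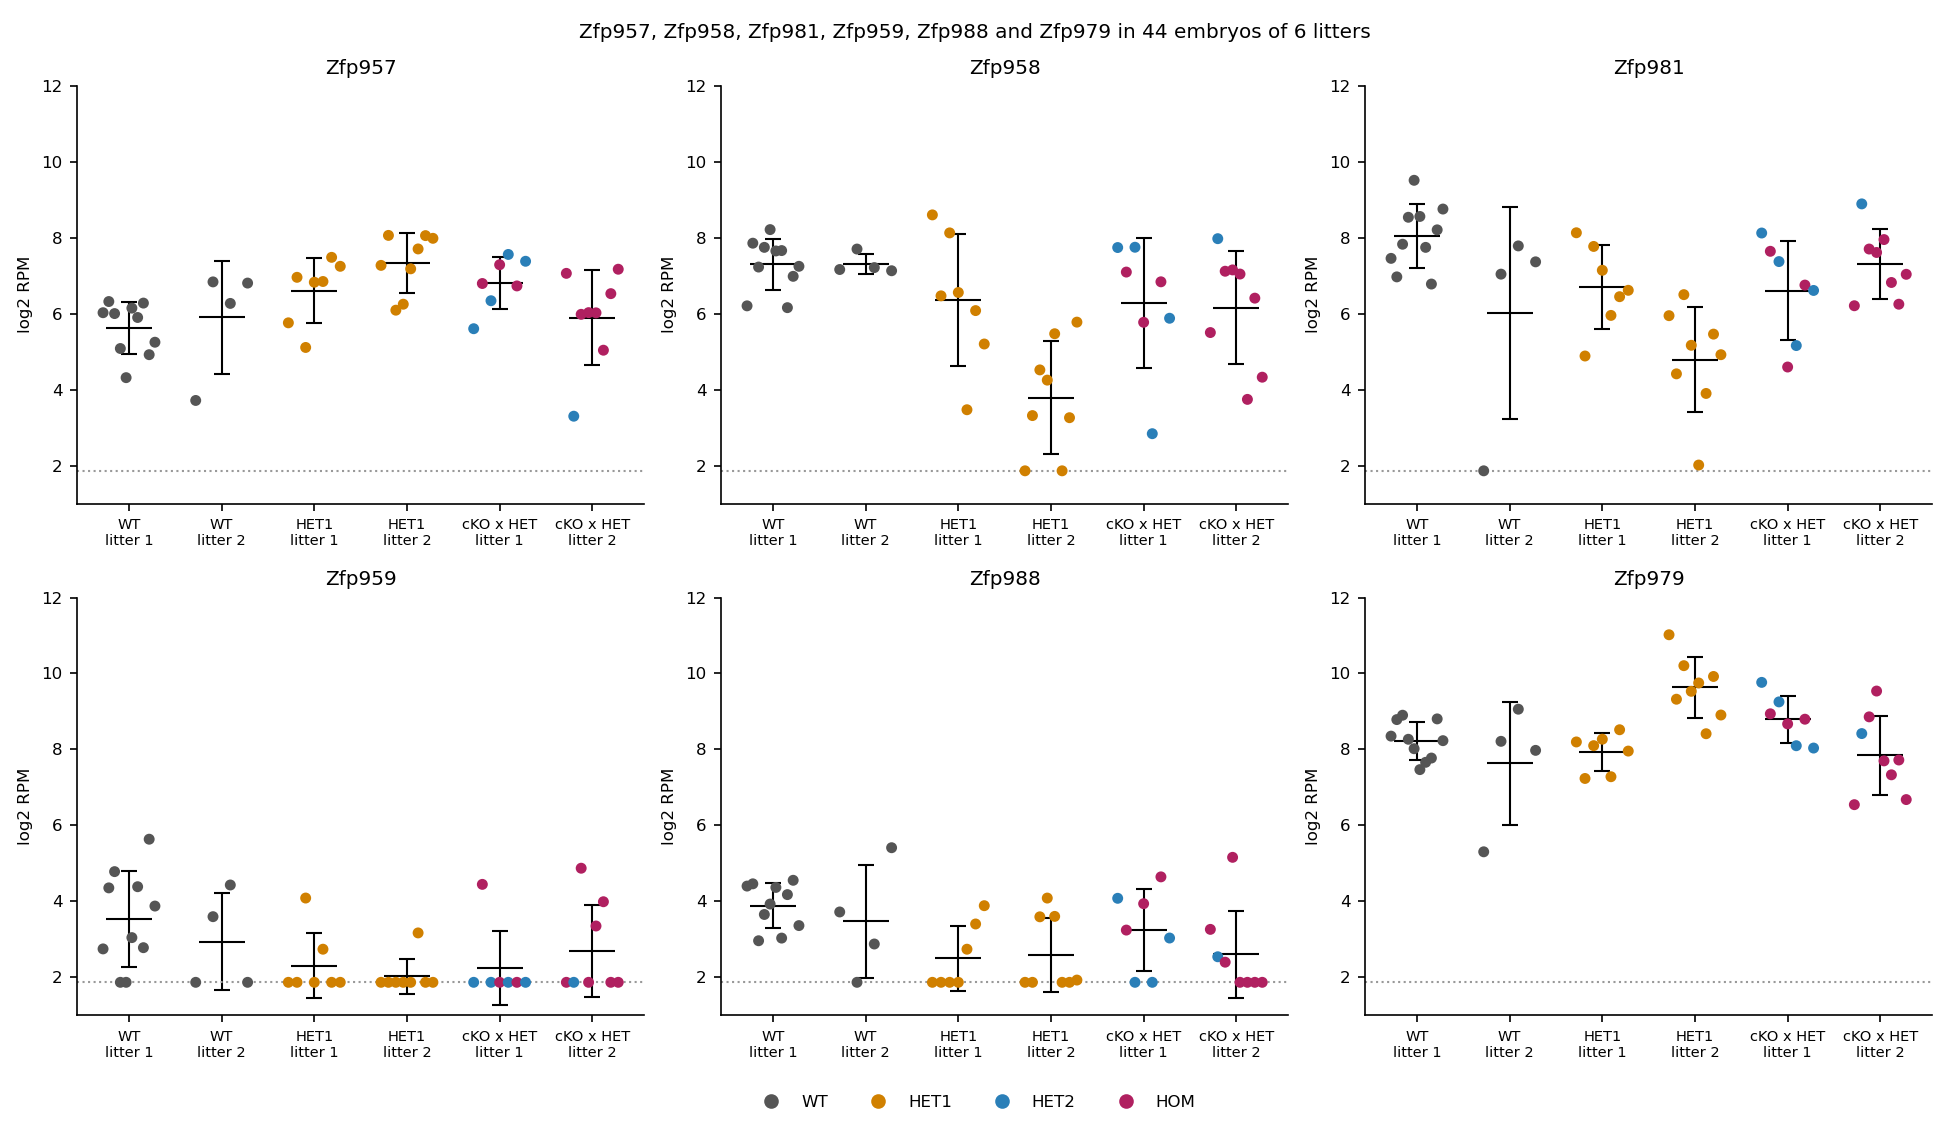
Log2 RPM of Zfp957, Zfp958, Zfp981, Zfp959, Zfp988 and Zfp979 in each of 44 embryos by litter, coloured by group, with the mean and SD of each litter as bars and the common floor of 1.86 as a dotted line. In Zfp958 the 14 WT embryos lie above 6.1 while litter 2 of HET1 reaches down to the floor, and in Zfp979 litter 2 of HET1 is the highest litter.

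The HET1 count changed with the treatment of depth and litter. With log2 total reads as a covariate, or with litter as a random effect, 0 of the 49 members and 0 of the 13338 genes passed, and the median depth of HET1 was below that of WT. The differences kept their sign. With litter as a random effect they were -2.26 for Zfp958, -1.51 for Zfp981, 1.24 for Zfp957, -1.18 for Zfp988 and -1.13 for Zfp959, and with total reads as a covariate -1.65, -0.83, 0.87, -1.51 and -0.98 in the same order. Without WT k the count was 11 members (1 higher, 10 lower; 22.4%, beside 7.65% of all tested genes), Zfp977 (-2.03), Zfp955b, Zfp930, Zfp951, Zfp949 and Zfp989 being added to the 5. Without litter 2 of HET1, or without litter 1 of WT, it was 0, beside 5 and 136 of all 13338 genes. Summed markers differed between WT and HET1 as well. Those of the 2-cell stage had a median sum of 458.6 RPM in WT and 795.3 in HET1, and those of the oocyte 1842 and 2572 RPM. The ranges overlapped in both. Of the 2-cell list, Tdpoz4 (mean 4.84 log2 RPM in WT, 4.07 in HET1) and Usp17la (2.20 and 2.15) were the only genes lower in HET1. The part of the markers in the result was not tested.

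**Figure D3:**
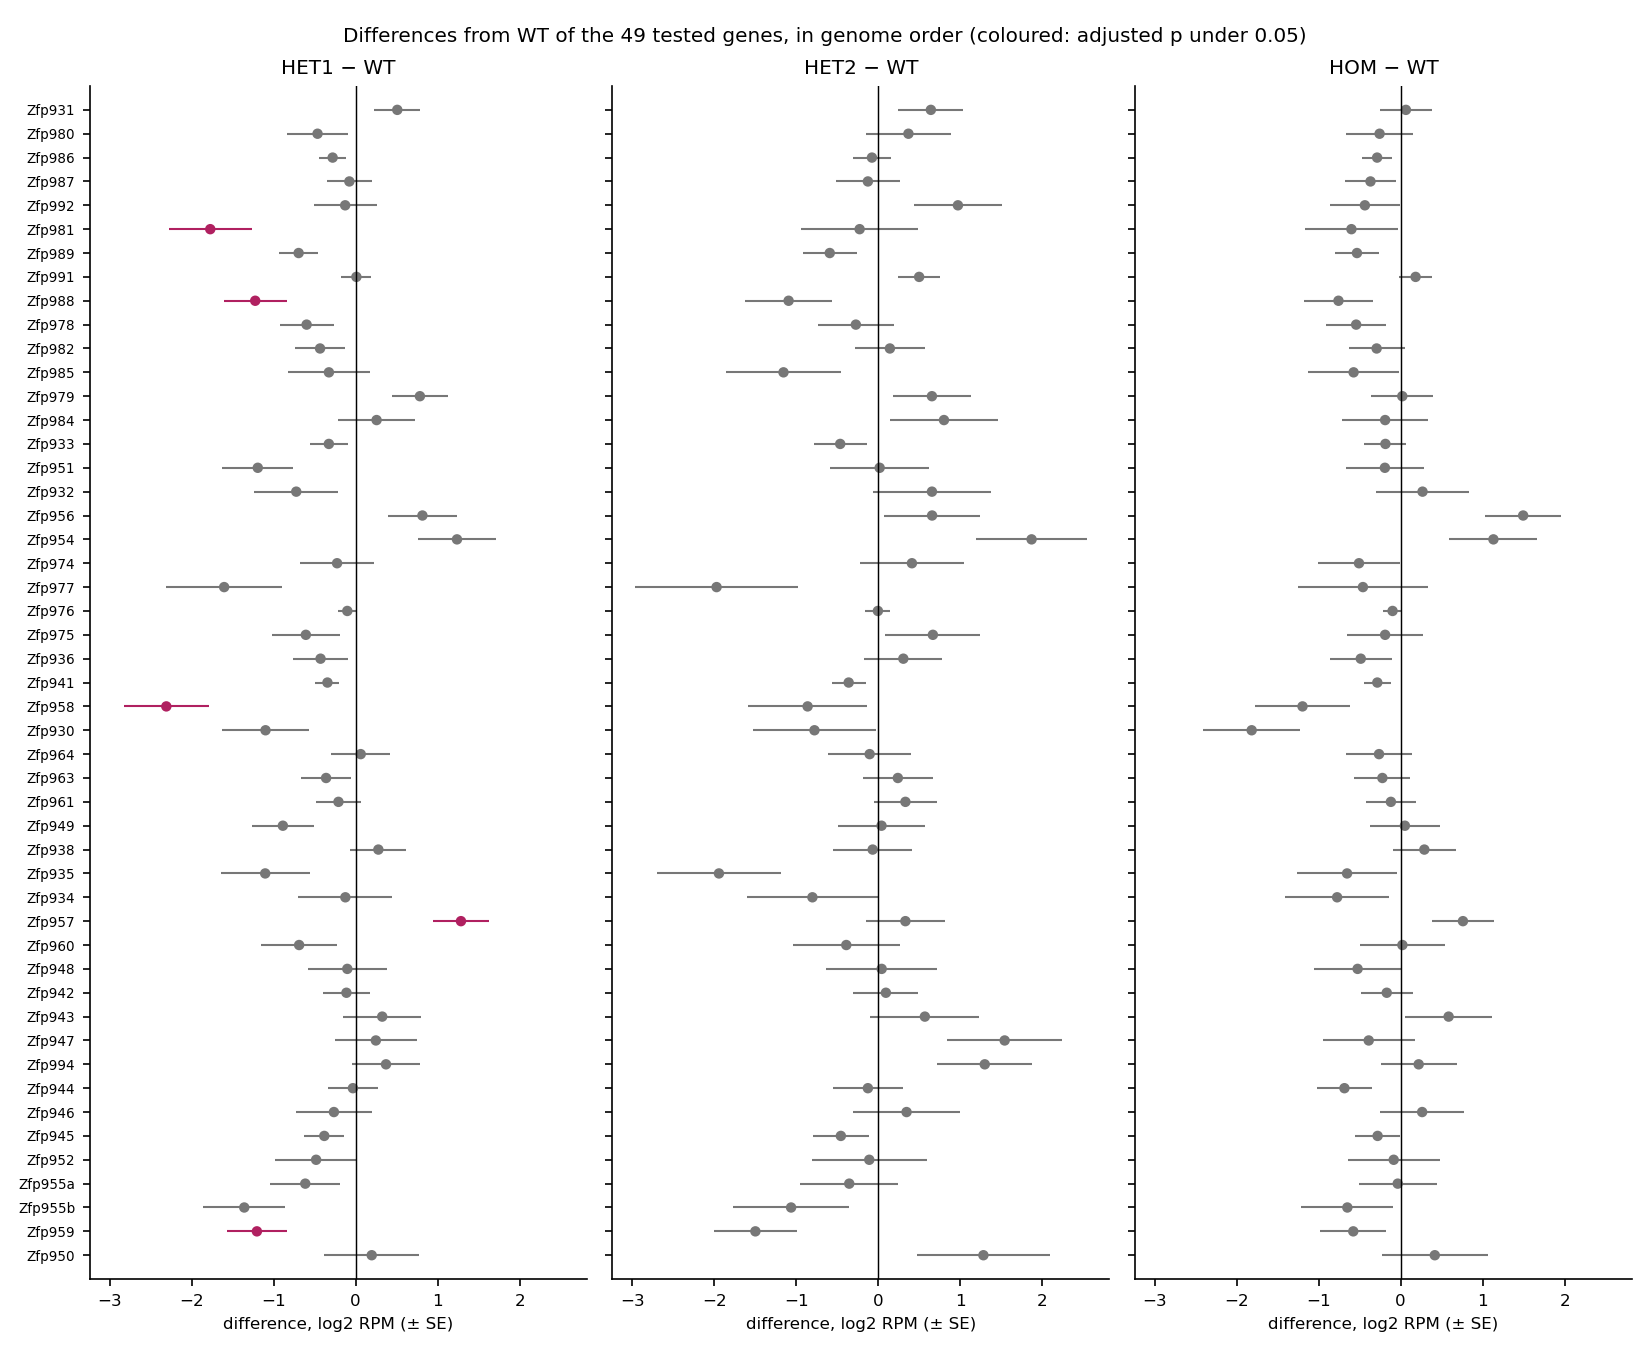
Differences from WT in log2 RPM (points, with SE as lines) of the 49 tested genes in HET1, HET2 and HOM embryos, in genome order, with adjusted p under 0.05 in colour. The only coloured genes are Zfp981, Zfp988, Zfp958, Zfp957 and Zfp959 in HET1.

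HOM embryos, which lacked Dppa2 and Dppa4 from both parents, had 0 of 49 members past the threshold against WT (limma). Of all tested genes 0.045% passed (0.03% higher, 0.015% lower). The genes called lower were Dppa2 and Dppa4, from which the genotype had been assigned. At an unadjusted p under 0.05 there were 6 members (12.2%), beside 16.5% of all tested genes. The median difference was -0.26 log2 RPM, with 35 members below 0 and 14 above, beside a median of 0.17 over all genes. Without litter 1 of WT the median of the members was 0.29 in HOM and 0.16 in HET1, both above 0. In HET1 it was also above 0, at 0.12, with log2 total reads as a covariate.

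The 3 members with the smallest p in this comparison were Zfp956, Zfp930 and Zfp954. Zfp956, on chromosome 6 (47953390 to 47965300), ranged from 1.86 to 3.94 log2 RPM in WT (median 2.30) and from 1.86 to 5.78 in HOM (median 4.28), a difference of 1.49 ± 0.47 (SE, adjusted p = 0.12, limma). Zfp930, on chromosome 8 (69209038 to 69230536), ranged from 1.86 to 8.82 in WT (median 7.41) and from 2.61 to 7.57 in HOM (median 4.94), a difference of -1.82 ± 0.60 (adjusted p = 0.13, limma). Zfp954, on chromosome 7 (7114690 to 7121488), ranged from 1.86 to 4.94 in WT (median 2.23) and from 1.86 to 6.18 in HOM (median 3.95), a difference of 1.13 ± 0.54 (adjusted p = 0.28, limma). The groups overlapped in each, and the differences did not pass the test. Over the alternative fits they ran from 1.17 to 2.17 for Zfp956, from -2.41 to -0.34 for Zfp930 and from 0.53 to 2.53 for Zfp954.

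HET2 embryos likewise had 0 of 49 members past the threshold against WT (limma), with 0.0375% of all tested genes called (0.0225% higher, 0.015% lower). Dppa2, which had also been used to assign the genotype, was among those called lower. At an unadjusted p under 0.05 there were 6 members (12.2%), beside 9.01% of all tested genes. The median difference was 0.02 log2 RPM, beside -0.01 over all genes. Zfp959 had a difference of -1.50 ± 0.51 (SE, adjusted p = 0.36, limma), with 1 HET2 embryo carrying reads and all 5 at the floor. Zfp954 ranged from 3.94 to 5.69 in HET2 (median 4.53), a difference of 1.87 ± 0.67 (adjusted p = 0.39, limma). Zfp935, on chromosome 13, ranged from 1.86 to 7.23 in WT (median 5.84) and from 2.10 to 5.12 in HET2 (median 3.55), a difference of -1.94 ± 0.76 (adjusted p = 0.44, limma). Over the alternative fits this difference ran from -2.61 to -0.27, and the reads of Zfp935 cannot be told from those of Gm49359.

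HOM and HET2 embryos came from the same litters and differed in the paternal allele. With litter as a block, 0 of 49 members passed (limma), and 0.015% of all tested genes did, which were Dppa2 and Dppa4. The genotypes had been assigned from these genes, so their calls were set by that choice. At an unadjusted p under 0.05 there were 3 members (6.12%), beside 4.81% of all tested genes. These were Zfp947 (-2.61 ± 0.86, SE, n = 15), Zfp992 (-1.69 ± 0.56) and Zfp957 (1.14 ± 0.53), each with an adjusted p of 0.85 (limma). Zfp947 ranged from 1.86 to 7.36 log2 RPM in HET2 (median 3.33) and from 1.86 to 4.82 in HOM (median 1.90). Zfp992 ranged from 1.86 to 4.84 in HET2 (median 4.30) and from 1.86 to 3.74 in HOM (median 2.20). The 1 HET2 embryo of litter 2 (e) stood at 3.30 for Zfp957 and 7.36 for Zfp947, and without it the differences were 0.22 for Zfp957, -1.52 for Zfp947 and -1.73 for Zfp992.

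Litters of the same cross were compared with each other because each gave embryos of the same expected genotypes. The HET1 litters nevertheless differed in the targeted genes themselves, which were lower in litter 2 (Dppa4, -1.79 ± 0.35 log2 RPM, SE, adjusted p = 0.00019, and Dppa2, -1.56 ± 0.36, adjusted p = 0.0011, limma), and the part of this in their other differences was not tested. Zfp977, on chromosome 7 (42579783 to 42592547), differed between the litters of every cross. It was called in all 3 litter comparisons, as were 17 of 13338 tested genes (0.127%). No other member was called in more than 1, where 4.54% of all tested genes were called in at least 2.

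In litter 1 of WT, Zfp977 ranged from 6.15 to 9.23 log2 RPM (8.28 ± 0.89, SD, n = 10). In litter 2 it stood at 1.86 (no read, WT k), 5.28, 5.47 and 7.49 (5.02 ± 2.33, n = 4). The difference was -3.25 ± 0.77 (SE, adjusted p = 0.014, limma), the most negative of all 13338 genes, and -2.20 (adjusted p = 0.39, limma) without WT k. In litter 1 of HET1 the values were 7.03, 7.10, 7.24, 7.36, 7.98, 8.28 and 8.77. In litter 2 they were 1.86 in 3 embryos without a read, then 4.24, 4.75, 5.17, 6.30 and 6.34. These litters did not overlap and differed by -3.63 ± 0.67 (SE, adjusted p = 8.8e-05, limma).

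In the litters that held HET2 and HOM embryos, litter 1 had Zfp977 at 2.99, 3.32, 3.52 and 7.29 in HET2 and at 3.92, 5.10 and 6.80 in HOM. Litter 2 had it at 9.76 in the 1 HET2 embryo and from 6.19 to 8.78 in the 7 HOM embryos. Both genotypes were low in litter 1 and high in litter 2, with an overlap between 6.19 and 7.29. The difference was 3.18 ± 0.76 (SE, adjusted p = 0.0076, limma, with a term for HOM). In reads, the embryos of litter 1 of HET1 carried 67 to 619 and those of litter 2 carried 0 to 148. The medians of total reads were 663861 and 524828, and the cause of the difference was not tested. In the comparisons with WT, Zfp977 had differences of -0.46 in HOM, -1.60 in HET1 and -1.97 in HET2, none past the threshold with all embryos.

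Zfp936, whose promoter window is a near copy of that of Zfp977, had closer litter means, of 9.94 and 8.48 log2 RPM in WT, 9.31 and 8.91 in HET1, and 9.42 and 9.20 in the litters with HET2 and HOM embryos. None of its litter differences passed the test. In WT the litter difference was -1.46 (unadjusted p = 0.0052, adjusted p = 0.12, limma), with embryos of litter 2 from 6.37 to 9.57. Zfp936 had reads in all 44 embryos, where Zfp977 had none in 4.

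**Figure D4:**
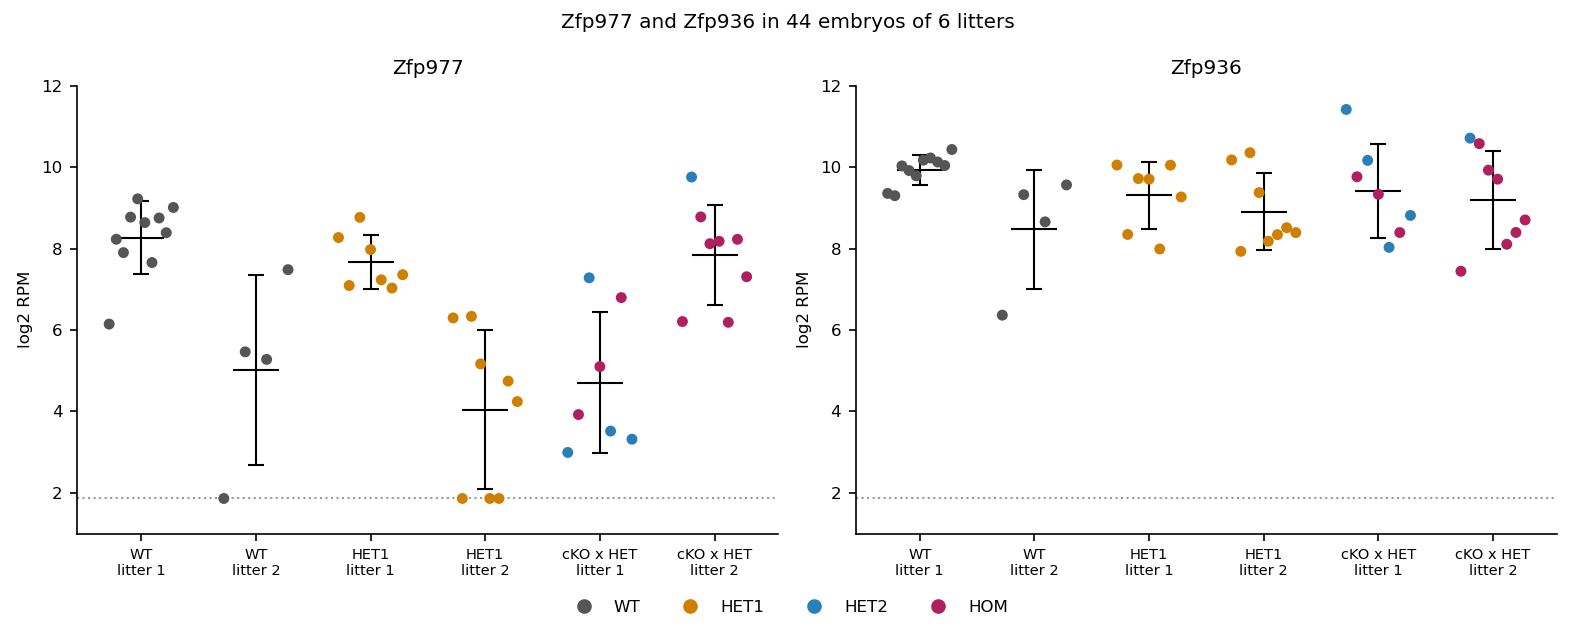
Log2 RPM of Zfp977 and Zfp936 in each of 44 embryos by litter, coloured by group, with the mean and SD of each litter as bars and the common floor of 1.86 as a dotted line. Zfp977 is high in 1 litter of each cross and low in the other, down to the floor in 4 embryos, whereas Zfp936 stays above 6.3 in all.

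Between the HET1 litters 9 of 49 members were called (2 higher and 7 lower in litter 2), where 22% of all tested genes were, 6.48% higher and 15.5% lower. The share of members was close to the background. Higher in litter 2 were Zfp979 and Zfp984, neighbours on chromosome 4. Zfp979 ranged from 7.23 to 8.52 log2 RPM in litter 1 and from 8.41 to 11.0 in litter 2, a difference of 1.70 ± 0.39 (SE, adjusted p = 0.0013, limma), and Zfp984 differed by 1.81 ± 0.61 (adjusted p = 0.026, limma). Lower in litter 2, besides Zfp977, were Zfp958 (-2.57 ± 0.63, SE, adjusted p = 0.0026, limma), Zfp981 (-1.92 ± 0.60, adjusted p = 0.017), Zfp935 (-1.92 ± 0.64, adjusted p = 0.024), and Zfp951, Zfp930 and Zfp948 with differences from -1.54 to -1.79. Members of the same cluster thus moved in opposite directions, as Zfp979 and Zfp981 did on chromosome 4.

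Between the WT litters 2 of 49 members were called, both lower in litter 2, where 1.79% of all tested genes were called and 0.51% lower. Beside Zfp977 this was Zfp989 of chromosome 4, with a litter mean of 3.07 ± 0.86 log2 RPM (SD, n = 10) in litter 1 and 1.86 in litter 2 (n = 4), a difference of -1.20 ± 0.34 (SE, adjusted p = 0.044, limma). Zfp935 (-2.34), Zfp960 (-1.87) and Zfp981 (-2.02) came next, with adjusted p from 0.079 to 0.11 (limma). Without WT k, 0 members and 0.36% of all tested genes were called, and the differences were -0.64 for Zfp981, -1.69 for Zfp935, -1.87 for Zfp960 and -1.20 for Zfp989.

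Between the litters with HET2 and HOM embryos Zfp977 was the 1 member called of 49, where 6.44% of all tested genes were (3.01% higher, 3.43% lower). Zfp957 (-1.43 ± 0.49, SE, adjusted p = 0.065), Zfp960 (1.75 ± 0.63, adjusted p = 0.080), Zfp964 (-1.21 ± 0.53, adjusted p = 0.15) and Zfp954 (-1.48 ± 0.73, adjusted p = 0.21) followed in limma. In litter 2 all 8 embryos had Zfp964, on chromosome 8, at the floor.

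**Figure D5:**
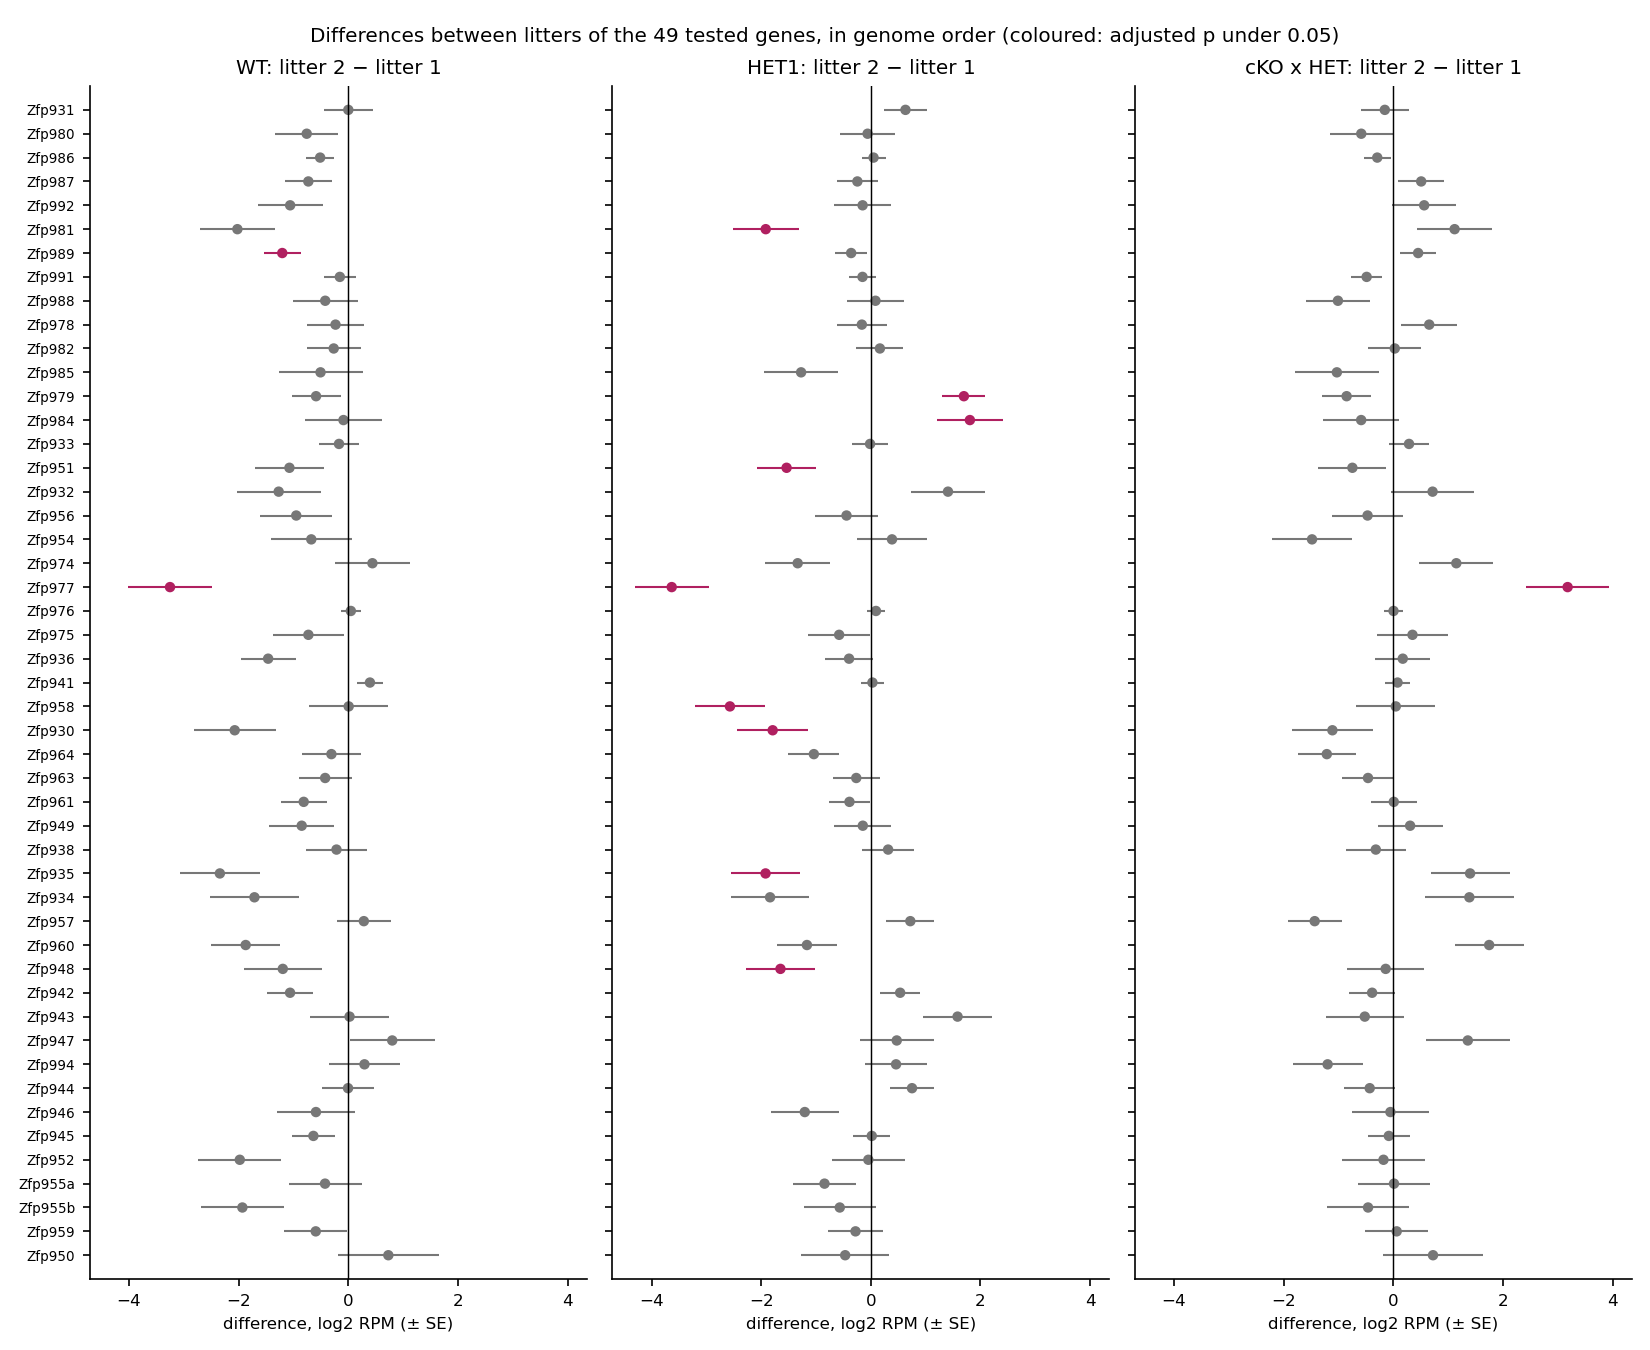
Differences between litter 2 and litter 1 in log2 RPM (points, with SE as lines) of the 49 tested genes in WT, HET1 and the litters with HET2 and HOM embryos, in genome order, with adjusted p under 0.05 in colour. Zfp977 is the only gene in colour in all 3 panels, at -3.25, -3.63 and 3.18.

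Genes whose level followed the 3 highest members across embryos were sought among 8918 genes above the floor in at least 22 of the 44 embryos, by Pearson correlation of log2 RPM. For Zfp936 these were Cul3 (r = 0.83), a scaffold of ubiquitin ligases, Esco2 (0.82), a cohesin acetyltransferase, and Casp8ap2 (0.80). For Zfp982 they were Gpbp1 (0.82), Smim27 (0.81) and Ndufb6 (0.80), a subunit of respiratory complex I. For Zfp977 they were Mysm1 (0.83), a histone H2A deubiquitinase, Rpf2 (0.82), a ribosome assembly factor, and 2900097C17Rik (0.81). All points share libraries and litters. Among members, the median correlation was 0.29 over 67 pairs within a cluster and 0.21 over 528 pairs between clusters.

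A list of 14 genes held partners of KRAB zinc finger proteins and other chromatin silencing factors, including Trim28, Setdb1 and the heterochromatin proteins Cbx1, Cbx3 and Cbx5, together with Zfp57 and Zfp445, KRAB zinc finger proteins that guard imprinted genes. All 14 were tested, and 0 differed between HOM and WT, HET2 and WT or HOM and HET2 by the same test. At an unadjusted p under 0.05 these comparisons had 0, 2 and 0 of them, beside 16.5%, 9.01% and 4.81% of all tested genes, and HET1 against WT had 6 (42.9%, beside 21.9%). In HET1 against WT 2 of the 14 (14.3%) were called, beside 6.51% of all tested genes, and neither call was kept with litter as a random effect or total reads as a covariate. Chd4, a remodelling ATPase, was higher (1.18 ± 0.32, SE, adjusted p = 0.018, limma) and Morc3, a chromatin ATPase, lower (-1.39 ± 0.34, adjusted p = 0.0079), while Trim28 had a difference of 0.51 (adjusted p = 0.51). Between HET1 litters Cbx1 was higher in litter 2 (2.01), and Smarcad1, Dnmt1, Zfp445, Cbx5 and Morc3 were lower (-0.80 to -1.54), and 22% of all tested genes were called in that comparison. Between the litters with HET2 and HOM embryos 1 of the 14 was called (6.44% of all tested genes), which was Morc3, higher in litter 2 there (1.35 ± 0.42, adjusted p = 0.043, limma). Between the WT litters 0 of the 14 were called by limma, beside 1.79% of all tested genes. At an unadjusted p under 0.05 there were 5 (35.7%, beside 14.7% of all tested genes). Morc3 had a difference of -0.94 there (adjusted p = 0.28, limma).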

How the data were processed

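The deposited values of 44 single-embryo libraries are log2 RPM. Per the labels and the paper's methods, the authors trimmed reads (Trim Galore 0.6.5, cutadapt 2.3), mapped them to GRCm38 with HISAT2 2.1.0, set a minimum MAPQ of 20 and counted over 35269 mRNA probes with SeqMonk, unstranded, so overlapping genes cannot be told apart (13 members have exons that overlap another gene). A gene without reads holds the value of 0.9 read. Whole reads were recovered by this unit (99.9997% of values lay within 0.05 read of a whole number). As there were no molecular identifiers, depth covers counting error only.

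Values below 1.86 log2 RPM were raised to it, genes above it in at least 5 embryos were kept, and groups and litters were compared with limma 3.58.1 in R 4.3.3 (eBayes with trend, Benjamini-Hochberg, 0.05; two-sided). HOM and HET2 were compared with litter as a block, and litters in a model of 6 litters with a term for HOM. Embryos were the replicates, although embryos of a litter share parents. Group and litter came from the labels. Count models were not run, as the test was chosen for the deposited log2 values. voom was run on recovered reads as an alternative, and the test was checked on simulated data.

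Named were the 12 members highest by RPKM, those called in a group comparison (at most 10), otherwise the 3 with the smallest p, the 5 with the smallest p between litters, and those without reads. Other names, such as Zfp984, and the pairs of Zfp957 were added after their values were seen. The members and lists were chosen with earlier results of these data known. Transcript windows came from GENCODE M21, promoters from RefSeq (aligned with Biopython 1.88). Alternatives covered filter, floor, pseudocount, scaling, weights, litter, depth and embryos left out. A further 2 were added after the values were seen, namely embryos of at least 500000 reads and WT without k. Protein sequences were not used here.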

Additional observations from a re-analysis of the deposited data

Results flagged for a closer look

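Of 46 sets of values examined in HET2 (n = 5) and HOM (n = 10), 3 held an embryo whose gap to the nearest embryo exceeded Dixon's 95% limit, where chance flags about 1 in 20. Zfp964 stood at 5.02 log2 RPM in HOM embryo a, the highest of the group, with the next at 2.90. Zfp981 stood at 4.60 in HOM embryo b, the lowest, with the next at 6.21. Zfp992 stood at 1.86 in HET2 embryo c, the lowest, with the next at 4.25.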

How the results depend on the processing

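In HOM against WT, HET2 against WT and HOM against HET2, 0 members were called under each of 21, 26 and 25 alternatives, respectively, where 0.0085% to 0.99%, 0% to 0.69% and 0% to 1% of all genes were. In HET1 against WT, 5 of 49 members became 1 of 65 with no filter on low genes, 9 of 57 with deposited values of a mean of at least 0 (15.8%, beside 24.7% of all genes), 3 with log2(RPM + 1) (6.12%, beside 6.55%), 3 with voom on library totals (6.12%, beside 7.47%), 0 with litter as a random effect, with litter means as replicates or with total reads as a covariate, and 1 in embryos of at least 500000 reads. With mating number as a replicate block it was 2, and the labels do not say that a mating number marks anything shared between crosses. Leaving out each litter in turn gave 0 to 11 and leaving out WT k gave 11. The share of members called was above that of all genes in 8, below it in 10 and equal at 0 in 3 of the 21 alternatives, and without the floor it was 10.2% beside 13.4%. In the WT litters, 2 members became 0 with no filter, 1 with a floor passed in 22 embryos, 1 with median centring, 1 with array weights, 4 with deposited values of a mean of at least 0, 4 with voom on library totals, 0 without WT k and 1 in embryos of at least 500000 reads. In the HET1 litters, 9 became 3 with no filter and 4 with voom by TMM, with voom on library totals and in embryos of at least 500000 reads. In the litters with HET2 and HOM embryos, 1 became 0 with no filter, 3 with array weights, and 2 with a floor passed in 22 embryos, median centring, either voom fit or total reads as a covariate. The share of all genes called ranged from 0.36% to 5.08%, 5.57% to 32% and 1.39% to 13.2% over the alternatives of these 3 litter comparisons, and that of members was above it in 9 of 12, 1 of 11 and 0 of 11. The causes were not tested.

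Over 29 differences of named members and their alternatives, 402 values kept their sign and side of the threshold, 67 lost the call, 18 gained one and 0 changed sign. Zfp977 kept its call in 11 of 11 alternatives between the HET1 litters, in 10 of 12 between the WT litters and in 10 of 11 between the litters with HET2 and HOM embryos. Genes near the floor, such as Zfp959 and Zfp988, rest on few reads at the depth of HET1.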
